A study of Homo sapiens with 15 samples.

Results

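Oxidative phosphorylation was followed at the RNA level in MDA-MB-468 cells, an established human breast cancer line of basal, triple-negative type, through the genes that encode its structural subunits. Members were taken by symbol and Ensembl ID: protein-coding genes whose symbols start with NDUFA, NDUFB, NDUFC, NDUFS or NDUFV (assembly factors of the NDUFAF series left out), UQCR, COX4 to COX8, ATP5F1, ATP5M or ATP5P, together with SDHA to SDHD, CYC1 and the 13 MT- protein genes. The rule found 103 of the 61552 listed genes. Of these, 90 lie in nuclear DNA and 13 in mitochondrial DNA. By complex, 47 belong to complex I, 4 to complex II, 11 to complex III, 20 to complex IV and 21 to complex V. NDUFA4 and NDUFA4L2 are kept with complex I because of their symbols, although the NDUFA4 protein is now placed with complex IV.

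There were 15 libraries of poly(A) RNA, 3 for each of 5 groups. In the drug experiment, cells were serum starved for 12 h, given 10 ng/mL EGF, and left with EGF alone (EGF) or treated for 12 h with 10 µM cSNX1.3, the peptide that keeps EGFR from binding Sorting Nexin 1 (cSNX1.3), or with 15 µM erlotinib, an inhibitor of the EGFR kinase (erlotinib). All 3 of these groups thus received EGF, and no group without EGF was sequenced among them. In the line experiment, endogenous EGFR was knocked down in both groups by a short hairpin RNA under IPTG control (1 mM, 2 days before use and throughout), and GFP-tagged EGFR was put back as wildtype (WT) or with a mutated nuclear localization sequence (ΔNLS). The study's text says that these lines received EGF, without a dose or time, and nothing says that more than 1 derived line was made for each construct. The labels do not say whether replicates were separate cultures, so p-values measure the spread between these libraries, which may be technical. Library totals ran from 22915676 to 35900649 counts. All 9 markers fixed for a basal breast epithelial line were detected. The leukocyte markers PTPRC, CD3E and NKG7 had at most 7 counts in any library. Of 3 fibroblast markers, DCN was at 0 and COL1A2 had at most 2 counts, while COL1A1 was at 8.42 to 21.1 CPM. Of the receptors low in triple-negative lines, PGR was at 0 and ESR1 and ERBB2 were at 2.75 to 8.53 and 24.7 to 109 CPM. The summed level of the 9 epithelial markers was lower with erlotinib (13990 to 15339 CPM) than with EGF (21071 to 25049 CPM), and lower in ΔNLS (13417 to 15996 CPM) than in WT cells (20082 to 22748 CPM). With cSNX1.3 it was higher than in every EGF library (25274 to 30190 CPM). The 9 markers did not move together. At an adjusted p of 0.05 by edgeR, 2 were higher and 4 lower with erlotinib (44.0% of all genes passed). With cSNX1.3, 2 were higher and 0 lower (6.07%), and in ΔNLS cells 1 was higher and 6 lower (41.4%). Abundant genes weigh most in the sum, as KRT8 reached 9380 CPM and CDH1 at most 131.5 CPM. The part of the summed level in the results was not tested. Here and below, CPM is the count of a gene relative to the library total, scaled by edgeR's TMM method. EGFR itself stood at 4678 ± 417 CPM with EGF, 4681 ± 254 CPM with erlotinib and 6078 ± 394 CPM with cSNX1.3, and at 1360 ± 166 CPM in WT and 1752 ± 37.0 CPM in ΔNLS cells (mean ± SD, n = 3). The hairpin was aimed at the untranslated 3′ end of the endogenous transcript, but a count per gene does not tell endogenous from introduced EGFR.

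Oxidative phosphorylation couples electron flow along the inner mitochondrial membrane to ATP synthesis. Complexes I and II pass electrons from NADH and succinate to ubiquinone, complex III passes them to cytochrome c, complex IV reduces oxygen, and the proton gradient built by complexes I, III and IV drives complex V, the ATP synthase. Every complex except complex II is assembled from proteins of both genomes. The MT- genes are transcribed inside the organelle as long precursors, whereas each nuclear gene has its own promoter. Many of those promoters are known to bind NRF1, factors of the ETS family such as GABPA, or YY1.

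The promoter sequences were examined first, because they are the part of the nuclear genes that the transcription factors listed here read. RefSeq promoter windows on GRCh38.p14, running from 250 bases before to 50 bases after a start site, were found for 70 of the 90 nuclear members. The letters GCATGCGC, a short form of the NRF1 motif, stood on either strand in 14 of the 70 members (20%), and in 1006 of all 27305 genes with a window (3.68%). The longer 10-letter NRF1 form, which contains the short one, was in 4 members (5.71%, against 1.52% of all genes). The letters CCGGAAG, an ETS motif, were in 21 members (30%, against 12.2%), and the 10-letter YY1 form was in 8 (11.4%, against 1.46%). Each match is a description of letters and not of a bound site. The windows below are the 150 bases before the first listed start site for 2 members that were higher with erlotinib (SDHD and ATP5MC2) and 3 that were lower (NDUFS6, ATP5ME and ATP5MC1). Those of SDHD, ATP5MC2, NDUFS6 and ATP5ME are shown because GCATGCGC stood in members that moved in opposite directions. The window of ATP5MC1 held neither GCATGCGC nor CCGGAAG. Capitals mark GCATGCGC or CCGGAAG on either strand, and the positions are chr11:112086723-112086872 (plus strand), chr12:53676084-53676233 (minus), chr5:1801257-1801406 (plus), chr4:674277-674426 (minus) and chr17:48892637-48892786 (plus).
SDHD: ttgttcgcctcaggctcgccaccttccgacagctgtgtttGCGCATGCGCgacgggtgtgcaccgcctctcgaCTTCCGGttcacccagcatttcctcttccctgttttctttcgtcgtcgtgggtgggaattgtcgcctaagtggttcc
ATP5MC2: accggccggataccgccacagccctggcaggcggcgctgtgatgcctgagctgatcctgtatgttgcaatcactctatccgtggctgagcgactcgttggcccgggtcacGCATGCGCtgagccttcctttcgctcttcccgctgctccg
NDUFS6: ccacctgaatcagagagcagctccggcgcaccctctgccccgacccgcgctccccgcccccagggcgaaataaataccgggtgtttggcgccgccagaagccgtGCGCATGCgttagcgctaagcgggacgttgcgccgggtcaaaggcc
ATP5ME: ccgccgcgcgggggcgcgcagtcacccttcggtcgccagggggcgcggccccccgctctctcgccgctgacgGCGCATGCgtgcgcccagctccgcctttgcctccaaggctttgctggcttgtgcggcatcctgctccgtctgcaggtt
ATP5MC1: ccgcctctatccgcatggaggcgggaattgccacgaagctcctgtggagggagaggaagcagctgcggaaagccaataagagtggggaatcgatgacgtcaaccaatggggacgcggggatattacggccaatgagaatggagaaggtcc

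GCATGCGC was found in the windows of all 3 members that were higher with erlotinib and had an entry (ATP5MC2, NDUFA5 and SDHD), in 2 of the 10 lower members with an entry (ATP5ME and NDUFS6) and in 9 of the 51 tested members with an entry that were not called. In NDUFA5 the match lies outside the 150 bases before each start site. In SDHD overlapping matches on opposite strands begin 110 and 108 bases before the start site. The match begins 40 bases before it in ATP5MC2, 46 bases in NDUFS6 and 78 bases in ATP5ME. ATP5MC1 held neither motif in the stretch printed. CCGGAAG was in the windows of 1 of the 3 higher members, 3 of the 10 lower members and 17 of the 51 not called. The 10-letter NRF1 form was in 1, 0 and 3 of them, and the 10-letter YY1 form in 0, 0 and 8. These counts are small and were not tested.

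The deepest RNA levels came from the mitochondrial genome. Between genes, levels are compared here only as CPM per kilobase of the Ensembl canonical transcript, in the EGF libraries. MT-CO1, MT-CO2 and MT-CO3, the catalytic core of complex IV, stood at 4507, 3181 and 2968 CPM per kilobase and were the highest of all members. The 7 MT- subunits of complex I had a median level of 854 CPM per kilobase, against 74.1 for the 38 tested nuclear subunits of the same complex. The medians of the tested nuclear subunits of the other complexes were 59.4 (complex II, 4 genes), 55.2 (complex III, 10 genes), 176 (complex IV, 11 genes) and 100.1 CPM per kilobase (complex V, 17 genes). NDUFS5, an accessory subunit of complex I, was the highest nuclear member at 1316 CPM per kilobase, and COX4I1, UQCRH and COX6B1 followed at 801, 704 and 582.

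Several subunits of complexes I and II that most cells need were listed at very low levels. NDUFV2, an iron-sulfur subunit, stood at 0.857 CPM per kilobase, NDUFA13 at 1.80, NDUFB8 at 7.08 and SDHA, the catalytic subunit of complex II, at 7.12. In each of them most exon bases of the canonical transcript are also exon bases of another listed gene, 89.965% in NDUFV2, 83.9% in NDUFA13, 72.0% in NDUFB8 and 69.4% in SDHA. The 7 tested nuclear members with 50 to 90% of their exon bases shared had a median of 7.12 CPM per kilobase, and the 73 with less than 50% shared had a median of 84.9. NDUFA7, with 77.9% shared, had at most 7 counts in any library. The study's setting for read pairs that fall on more than 1 gene is not given in the sources used here, so the levels of these members are uncertain and their part in the results was not tested. NDUFA9 was at 1.13 CPM per kilobase with 11.7% shared, so not every low member shares most of its exon bases.

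**Figure D1:**
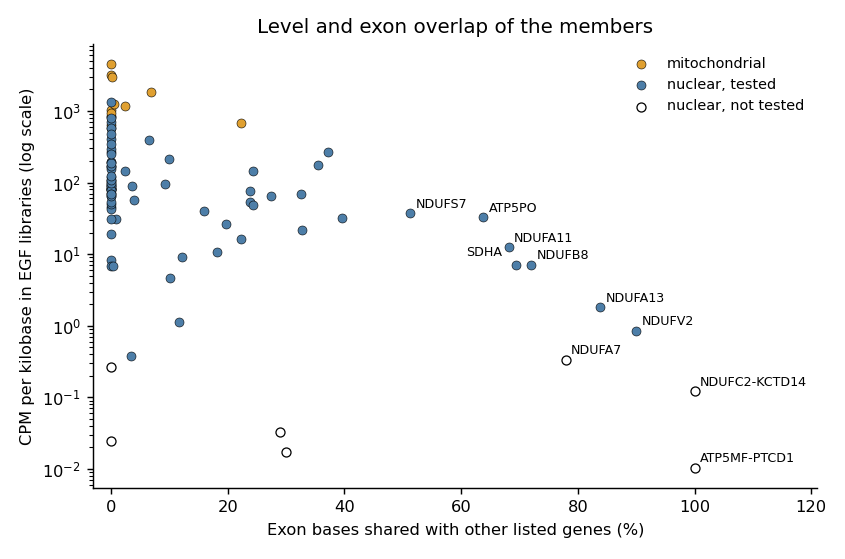
Mean level of each member in the 3 EGF libraries (CPM per kilobase, log scale) against the percentage of its exon bases shared with other listed genes. Tested nuclear members with 50 to 90% shared have a median of 7.12 and those with less than 50% a median of 84.9; COX4I2, COX8C and ATP5MGL had no counts in these libraries and are not drawn.

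A filter on low counts kept 93 of the 103 members in both experiments, 80 nuclear and all 13 mitochondrial. The 10 others had at most 9 counts in any library. They are the forms typical of muscle, testis or lung COX4I2, COX6A2, COX6B2, COX7A1, COX7B2 and COX8C, the read-through genes NDUFC2-KCTD14 and ATP5MF-PTCD1, ATP5MGL, a relative of ATP5MG, and NDUFA7. The ubiquitous partners of the tissue-restricted forms were well covered, with mean levels in EGF libraries of 611 CPM for COX4I1, 284 for COX6B1, 219 for COX7A2, 86.8 for COX8A, 76.9 for COX7B and 37.0 for COX6A1.

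Erlotinib vs. EGF asked what loss of EGFR kinase activity does to these genes. The answer at this depth was a mixed set of changes in nuclear members and none that passed the test in mitochondrial ones. Of the 93 tested members, 20 passed an adjusted p of 0.05 (edgeR quasi-likelihood test, Benjamini-Hochberg over all 15738 genes tested). Over all genes tested, 44.0% passed, and of the members 21.5%. All 20 were nuclear, 6 higher and 14 lower. The median log2 change of the 80 nuclear members was -0.07, against 0.01 over all genes, and 69 of the 93 members changed by less than 0.25 in either direction. In bulk samples, fewer cells of a kind and less RNA per cell cannot be told apart. In each of the 20 called members the 3 erlotinib and the 3 EGF libraries did not overlap. The calls were made from these same libraries, so this is no separate support, and the share over all genes was not counted. Some gaps were narrow. In NDUFS5 the lowest EGF library was at 591.63 CPM and the highest erlotinib library at 590.97 CPM.

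**Figure D2:**
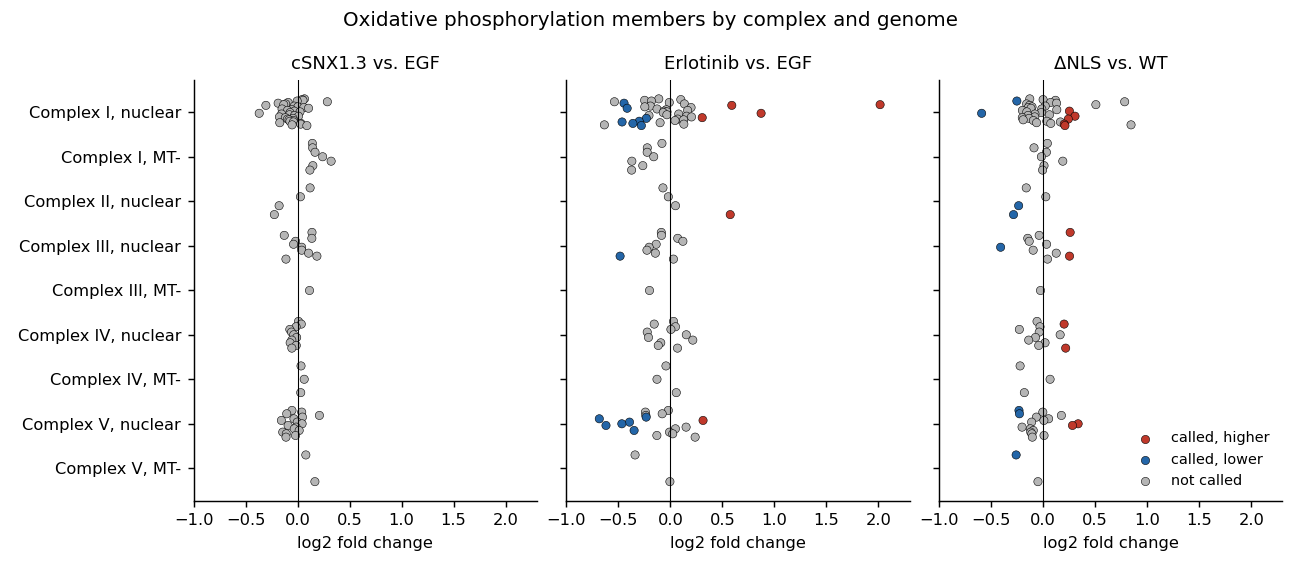
Log2 fold change of the 93 tested members (points), by complex and genome, in the 3 comparisons. Red and blue mark members called higher or lower at an adjusted p of 0.05 by edgeR. No member is called with cSNX1.3, 20 are called with erlotinib and 19 in ΔNLS cells.

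The clearest rise among well-covered members was in NDUFB5, an accessory subunit of the membrane arm of complex I (GENCODE 44, GRCh38, chr3:179604690-179627647, plus strand). It was at 19.3, 20.8 and 17.7 CPM in the EGF libraries and at 31.7, 38.0 and 36.3 CPM with erlotinib. Each erlotinib library was above each EGF library, and the log2 change was 0.87 ± 0.11 (SE, adjusted p = 1.85e-05 by edgeR), 1.83-fold higher. NDUFA5, an accessory subunit of the matrix arm (chr7:123536997-123557904, minus strand), was at 41.8, 50.8 and 45.1 CPM with EGF and at 63.4, 76.4 and 67.5 CPM with erlotinib. Its log2 change was 0.59 ± 0.10 (adjusted p = 0.00021 by edgeR). NDUFC2 rose less, by 0.31 ± 0.097 on the log2 scale (adjusted p = 0.0179 by edgeR), and this call was lost without EGF replicate 3 or without erlotinib replicate 3.

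SDHD, a membrane anchor of complex II (chr11:112086824-112120016, plus strand), was the only one of the 4 succinate dehydrogenase genes to change with erlotinib. It was at 69.1, 77.8 and 69.2 CPM with EGF and at 92.3, 119 and 111 CPM with erlotinib, again without overlap. The log2 change was 0.57 ± 0.12 (adjusted p = 0.00109 by edgeR). SDHA, SDHB and SDHC differed by -0.07, -0.02 and 0.05 on the same scale, with adjusted p of 0.58, 0.899 and 0.696.

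NDUFA4L2, a relative of NDUFA4 known as a target of hypoxia-inducible factor, had the largest fold change of any member but at a very low level. It was at 0.245, 0.557 and 0.258 CPM with EGF and at 1.61, 1.06 and 1.65 CPM with erlotinib. The log2 change was 2.02 ± 0.37 (adjusted p = 0.000378 by edgeR). NDUFA4 itself, at 160.1 CPM with EGF, differed by 0.13 (adjusted p = 0.292).

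Most members that fell were in complexes I and V, which also hold most of the tested nuclear members. Among the 38 tested nuclear subunits of complex I, 7 fell and 4 rose (28.9% called, against 44.0% of all genes tested). NDUFS6, an accessory subunit that binds zinc, was at 196, 233 and 198 CPM with EGF and at 175, 142 and 137 CPM with erlotinib. It fell by 0.47 on the log2 scale, with an SE of 0.11 (adjusted p = 0.00241 by edgeR). NDUFAB1, the mitochondrial acyl carrier protein, was at 50.04, 62.0 and 49.7 CPM with EGF and at 40.9, 38.9 and 41.5 CPM with erlotinib, a log2 change of -0.42 ± 0.10. NDUFA3, NDUFS8, NDUFS5, NDUFV3 and NDUFS1 fell by 0.45, 0.36, 0.30, 0.28 and 0.23. NDUFS5 and NDUFS1 were close to the threshold (adjusted p of 0.0418 and 0.0399 by edgeR). The NDUFS1 call was lost with the replicate block, under both other filters and with any 1 library left out. Of the 6 fits with 1 library left out, NDUFS5 passed in 2, NDUFS8 in 3, NDUFA3 in 4 and NDUFV3 in 6, and NDUFA3, NDUFS8 and NDUFS5 were all lost without erlotinib replicate 2 or erlotinib replicate 3. NDUFS8 and NDUFS5 were also lost without EGF replicate 2, and NDUFS5 without EGF replicate 1 and with at least 10 counts required in every library.

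**Figure D3:**
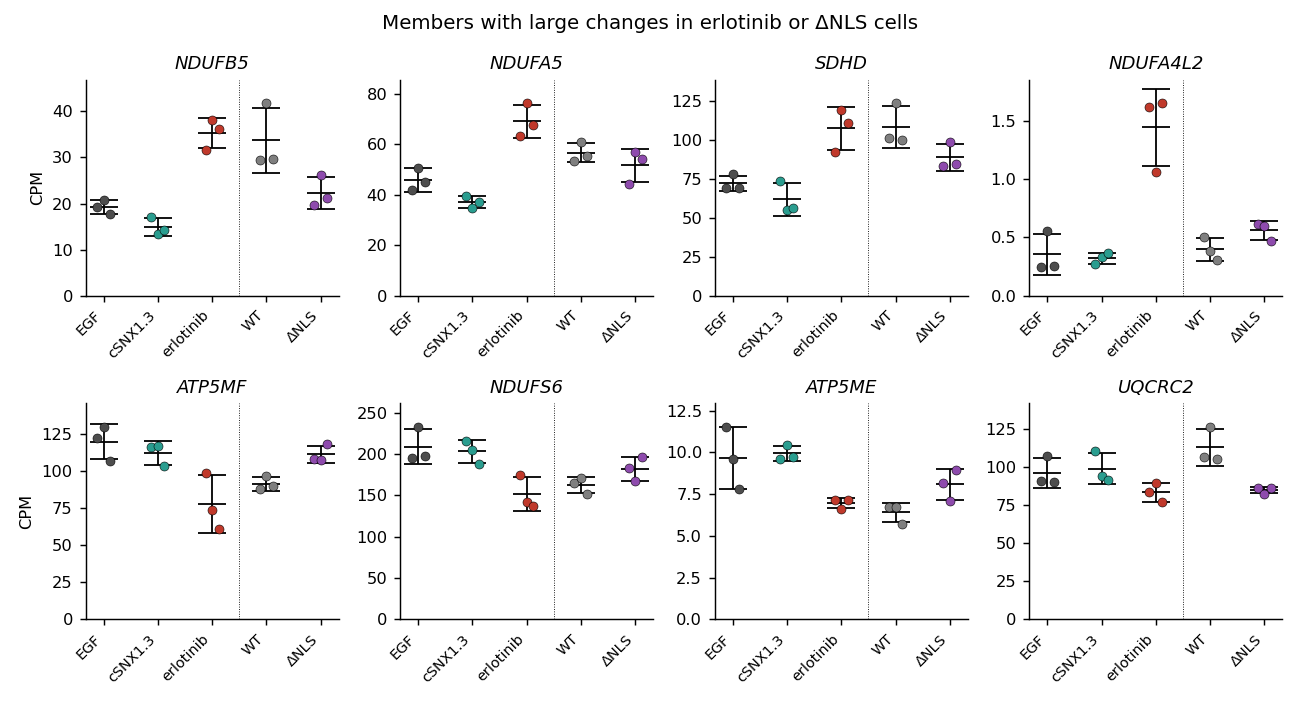
CPM of 8 members in each library (points, 3 per group), with the mean and SD as bars. The dotted line divides the drug experiment from the line experiment. NDUFB5, NDUFA5 and SDHD lie higher with erlotinib than with EGF, ATP5MF, NDUFS6 and ATP5ME lie lower, and NDUFB5, SDHD and UQCRC2 lie lower in ΔNLS than in WT cells.

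Complex V held 7 of the 20 calls, 1 higher and 6 lower of 17 tested nuclear genes. That is 41.2% called, near the 44.0% of all genes tested. ATP5MF, a subunit of the membrane part (chr7:99448475-99466186, minus strand, 37.2% of exon bases shared), was at 122, 130.1 and 107 CPM with EGF and at 99.1, 73.6 and 60.8 CPM with erlotinib, a log2 change of -0.62 ± 0.14 (adjusted p = 0.00221 by edgeR). The erlotinib libraries spread widely but all lay below the EGF libraries. ATP5ME, another membrane subunit, was at 11.6, 9.62 and 7.82 CPM with EGF and 7.13, 6.61 and 7.17 CPM with erlotinib, a log2 change of -0.47 ± 0.14. It shares 39.6% of its exon bases with MYL5, and its call was lost without EGF replicate 1. ATP5MK and ATP5F1E fell by 0.35 and 0.23. The ATP5MK call was lost without erlotinib replicate 3, and the ATP5F1E call was lost in 4 of 8 full alternatives, the replicate block among them, and without EGF replicate 1, EGF replicate 2, erlotinib replicate 2 or erlotinib replicate 3.

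The 3 genes of the c subunit, whose ring turns in the membrane as protons pass, did not move together. They encode the same mature protein with different import signals and lie at chr17:48892765-48895871 (ATP5MC1), chr12:53632726-53677408 (ATP5MC2) and chr2:175176258-175181710 (ATP5MC3). ATP5MC1 was at 57.1, 77.4 and 59.4 CPM with EGF and at 46.6, 36.9 and 37.0 CPM with erlotinib, a log2 change of -0.68 ± 0.12 (adjusted p = 0.000364 by edgeR). ATP5MC3, the most abundant of them, was at 217, 266 and 209 CPM with EGF and at 185, 169.8 and 172 CPM with erlotinib, a change of -0.39 ± 0.11 (adjusted p = 0.00803 by edgeR). ATP5MC2 was at 69.1, 78.3 and 59.4 CPM with EGF and at 94.1, 81.3 and 81.5 CPM with erlotinib. Its change was 0.31 ± 0.11 (adjusted p = 0.0278 by edgeR), and this call was lost without EGF replicate 1, EGF replicate 3 or erlotinib replicate 1. With cSNX1.3 the 3 genes were at 58.1 to 68.6, 203 to 258 and 55.5 to 65.1 CPM in the same order.

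**Figure D4:**
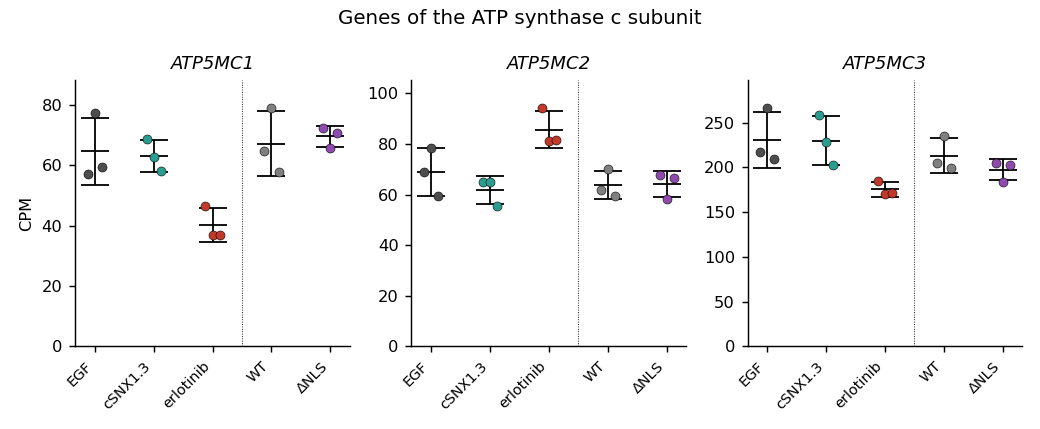
CPM of the 3 c subunit genes in each library (points, 3 per group) with mean and SD. With erlotinib ATP5MC1 and ATP5MC3 lie below all EGF libraries and ATP5MC2 above them.

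In complex III the one call was UQCRHL, which fell from 22.4, 25.7 and 23.2 CPM to 18.5, 15.3 and 17.1 CPM, a log2 change of -0.48 ± 0.11 (adjusted p = 0.00269 by edgeR). UQCRHL is a near-identical copy of UQCRH, the hinge protein gene, and reads may be divided between them. UQCRH had 342 CPM with erlotinib and 378 CPM with EGF and was not called. CYC1, cytochrome c1, and UQCRFS1, the Rieske protein, differed by -0.09 and -0.23 (adjusted p = 0.638 and 0.091 by edgeR). None of the 11 tested nuclear genes of complex IV was called, and their changes ran from -0.22 to 0.21 on the log2 scale. By an unadjusted p under 0.05 the count for complex IV was also 0.

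With cSNX1.3, no member passed the test against EGF. The background was 6.07% of 15738 genes. At an unadjusted p under 0.05 there were 2 members, NDUFB5 and NDUFA5, and DESeq2 called 0 as well. NDUFB5 passed with no filter on low counts (-0.39, adjusted p = 0.0454) and without cSNX1.3 replicate 1 (-0.48, adjusted p = 0.0272). NDUFB5 was at 17.2, 13.5 and 14.2 CPM with cSNX1.3, below the EGF libraries, and its log2 change was -0.37 with a 95% interval from -0.62 to -0.12 (adjusted p = 0.0813 by edgeR). NDUFA5 was at 39.5, 34.6 and 37.3 CPM, and its change was -0.31 with an interval from -0.52 to -0.09 (adjusted p = 0.0936 by edgeR). SDHD was at 73.9, 54.8 and 56.5 CPM, with overlap (-0.22, adjusted p = 0.333). The log2 changes of all 93 members lay between -0.37 and 0.32, and 89 were under 0.25 in size. A missed threshold does not show that a member was unchanged. A separate simulation of cSNX1.3 vs. EGF was run on 14737 genes. It recovered 7 of 50 genes changed 1.25-fold, 22 of 50 changed 1.5-fold and 43 of 50 changed 2-fold. The reported test came from a different fit, of all drug libraries together and 15738 genes. Recovery in that fit, or for the members as a set, was not simulated, so these rates do not carry over directly.

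Erlotinib vs. cSNX1.3, 2 groups that both received EGF, gave 32 called members (background 56.1%), 10 nuclear members higher, 17 nuclear members lower and 5 MT- genes lower. It shares its erlotinib libraries with the comparison above. NDUFB5 differed by 1.24 ± 0.12 on the log2 scale (adjusted p = 2.61e-07 by edgeR), 2.36-fold higher with erlotinib. NDUFA5 and SDHD differed by 0.90 ± 0.10 and 0.80 ± 0.12. ATP5MC1, ATP5MF, ATP5ME, UQCRHL and NDUFAB1 were lower by 0.65, 0.53, 0.51, 0.67 and 0.52 in absolute log2 units. The structural genes called here but not against EGF included NDUFC1 (0.38 ± 0.086) and ATP5PO (0.35 ± 0.12, with 63.8% of its exon bases shared) among the higher ones and ATP5F1D (-0.45 ± 0.14) and ATP5F1B (-0.28 ± 0.099), the latter encoding the catalytic beta subunit, among the lower ones. NDUFA13 also passed (-0.82 ± 0.32), at levels of 0.612 to 0.675 CPM with erlotinib and 0.856 to 1.34 CPM with cSNX1.3, but this call was lost with DESeq2, with no filter on low counts, with the replicate block and with all 15 libraries, and it remained only without cSNX1.3 replicate 1 when 1 library was left out. ATP5F1B was lost without erlotinib replicate 2 or 3 or cSNX1.3 replicate 1 or 2, ATP5F1D without erlotinib replicate 2, and ATP5PO without erlotinib replicate 3 or cSNX1.3 replicate 3. Of the lists taken up below, the cycle genes had 3 higher and 4 lower of 14, the assembly factors 14 and 11 of 54, the biogenesis genes 1 and 6 of 9, the mitochondrial RNA genes 2 and 16 of 30 and the ribosomal proteins 5 and 27 of 76. Without erlotinib replicate 3 the count of called members was 19, and without cSNX1.3 replicate 2 it was 20.

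The 13 MT- genes together took 1.64 to 2.27% of the counts in the EGF libraries, 1.69 to 2.14% with cSNX1.3 and 1.62 to 2.21% with erlotinib. The means were 1.92 ± 0.324%, 1.95 ± 0.234% and 1.91 ± 0.294% (SD, n = 3), and the groups overlapped fully. The exact permutation p was 0.9 for erlotinib vs. EGF and 0.9 for cSNX1.3 vs. EGF (two-sided, adjusted p = 0.9 over 4 comparisons), and 3 against 3 libraries cannot give less than 0.1. After TMM scaling, 12 of the 13 genes had a log2 change under 0 with erlotinib, with a median of -0.20, and none was called. At an unadjusted p under 0.05 there was 1, MT-ND6 (-0.37, adjusted p = 0.0681 by edgeR), and DESeq2 called 1. Without EGF replicate 2 the count was 3, without erlotinib replicate 2 it was 2, and with no filter on low counts it was 4. With cSNX1.3 all 13 changes were above 0, with a median of 0.14 and none called. The share is a sum of raw counts, in which MT-CO1 weighs most (6950 CPM with EGF and 6745 CPM with erlotinib on average). The median weighs each gene alike and is of scaled counts. These 2 measures gave different centres for the same libraries, and the reason was not tested.

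Against cSNX1.3, erlotinib libraries were lower in MT-ND3, MT-ND4, MT-ND4L, MT-ND6 and MT-ATP6, which encode subunits of complexes I and V. MT-ND4L was at 335, 519 and 451 CPM with cSNX1.3 and at 233, 326 and 249 CPM with erlotinib, a log2 change of -0.69 ± 0.19 (adjusted p = 0.00743 by edgeR). MT-ND3 was at 384, 453 and 378 CPM and at 341, 349.9 and 235 CPM, a change of -0.39 ± 0.13 (adjusted p = 0.0177 by edgeR). MT-ATP6 was at 1189, 1437 and 1372 CPM and at 1072, 1215 and 704 CPM, with overlap. Without erlotinib replicate 3, the library lowest in all of these genes except MT-ND4L, 1 MT- gene was called. Without cSNX1.3 replicate 2 the count was also 1. MT-ND4L overlaps MT-ND4 and MT-ATP8 overlaps MT-ATP6, so reads at these overlaps cannot be told apart. MT-ND6 shares no annotated base with a neighbour but lies on the opposite strand to the other members, and the counts carry no strand, so antisense RNA over it would be counted as MT-ND6.

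**Figure D5:**
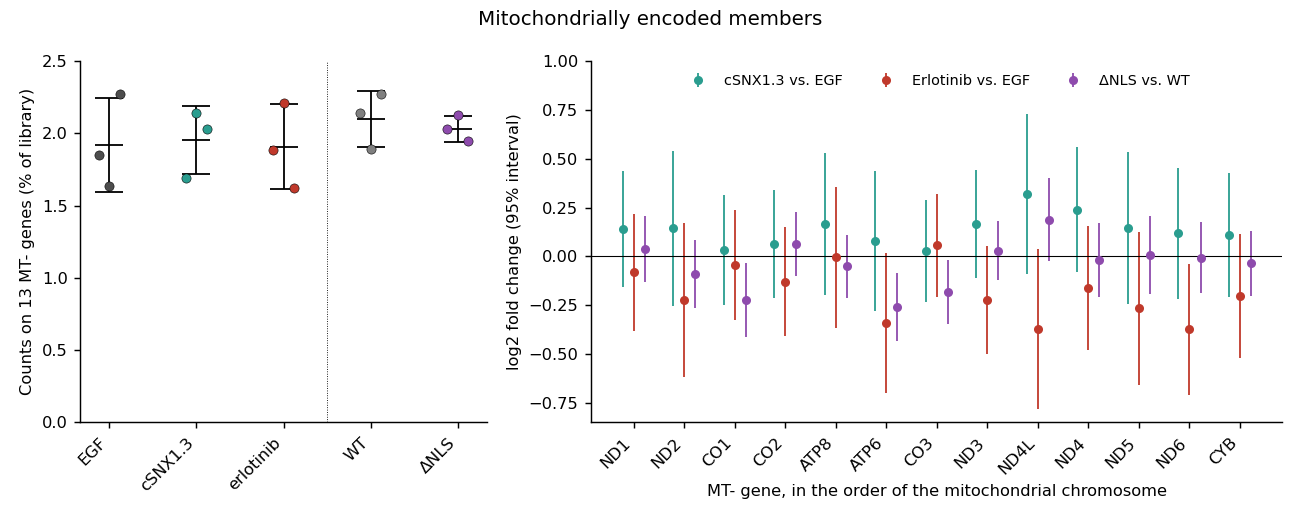
Left, percentage of each library's counts on the 13 MT- protein genes (points, with group mean and SD). Right, log2 fold change with 95% interval for each MT- gene in chromosome order. The group means of the share lie between 1.91 and 2.10%, and MT-ATP6 is the one gene called among the comparisons drawn, in ΔNLS vs. WT.

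ΔNLS vs. WT asked what loss of the nuclear localization sequence does, in cells that share the knockdown. Of 93 tested members 19 were called, against 41.4% of all 15805 genes tested, 11 nuclear members higher, 7 nuclear members lower and 1 MT- gene lower. The changes were small: 79 of 93 members changed by less than 0.25 on the log2 scale. The nuclear median was -0.04 and the median over all genes was 0.01. The count was not steady. It fell to 5 in a fit of all 15 libraries, and was 7 without ΔNLS replicate 3 and 11 without WT replicate 1. NDUFB5 and UQCRC2 were among the members that passed under each full alternative fit and with each library left out.

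UQCRC2, a core protein of complex III (chr16:21953288-21983660, plus strand), was at 106, 126 and 105 CPM in WT and at 86.2, 82.3 and 85.9 CPM in ΔNLS cells. The groups did not overlap, and the log2 change was -0.41 ± 0.078 (adjusted p = 0.000505 by edgeR). NDUFB5 was at 29.5, 41.8 and 29.7 CPM in WT and at 19.6, 26.2 and 21.2 CPM in ΔNLS cells, a change of -0.59 ± 0.14 (adjusted p = 0.00379 by edgeR).

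In complex II, both membrane anchors passed the test as lower. SDHD was at 101, 124 and 99.6 CPM in WT and at 83.2, 98.5 and 84.4 CPM in ΔNLS cells (-0.29 ± 0.090, adjusted p = 0.0179 by edgeR), and SDHC was at 151, 172 and 147 CPM and at 137, 128 and 133 CPM (-0.24 ± 0.074, adjusted p = 0.0168 by edgeR). The catalytic pair SDHA and SDHB differed by -0.16 and 0.02 and were not called. SDHA, with 69.4% of its exon bases shared, was at 21.5 to 22.0 CPM in WT and 18.7 to 19.9 CPM in ΔNLS cells, without overlap. The 2 calls are 50% of the 4 genes, against 41.4% of all genes tested. The SDHC call was lost without ΔNLS replicate 2 or ΔNLS replicate 3. The SDHD call was lost with all 15 libraries fitted and without ΔNLS replicate 1, ΔNLS replicate 3 or WT replicate 2.

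The members that rose included NDUFB9 (58.9 to 69.4 CPM in WT, 73.8 to 82.7 CPM in ΔNLS), an accessory subunit of complex I, with a log2 change of 0.31 ± 0.078 (adjusted p = 0.00517 by edgeR). ATP5MF was at 87.9, 96.9 and 90.1 CPM in WT and at 108, 108 and 118 CPM in ΔNLS cells, a change of 0.28 ± 0.070 (adjusted p = 0.00429 by edgeR). NDUFB9 and ATP5MF lost their calls only when all 15 libraries were fitted. CYC1 rose by 0.26 ± 0.087, with 142, 173 and 138 CPM in WT and 196, 169 and 176 CPM in ΔNLS cells, so the groups overlapped. The CYC1 call was lost with the replicate block, with all 15 libraries, and without ΔNLS replicate 1 or 3 or WT replicate 1 or 3. ATP5ME, UQCRHL, NDUFB2, COX8A, NDUFV3, NDUFV1 and COX5A rose by 0.34 to 0.20 and each lost its call under 1 or more alternatives. ATP5F1A and ATP5F1C, the alpha and gamma subunits of the catalytic head of complex V, and NDUFA12 fell by 0.23, 0.23 and 0.25. All 3 calls were lost with the replicate block, with all 15 libraries, and without ΔNLS replicate 2, ΔNLS replicate 3 or WT replicate 2. ATP5F1C was lost without ΔNLS replicate 1 too, and NDUFA12 without WT replicate 1.

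MT-ATP6 was the one mitochondrial call, at 1286, 1146 and 1371 CPM in WT and 1029, 1116 and 1028 CPM in ΔNLS cells (-0.26 ± 0.082, adjusted p = 0.018 by edgeR). The call was lost with the replicate block, with all 15 libraries, and without ΔNLS replicate 1, ΔNLS replicate 3, WT replicate 1 or WT replicate 3. MT-CO1 and MT-CO3 differed by -0.22 and -0.18 with adjusted p of 0.0555 and 0.0674, and DESeq2 called 3 MT- genes. MT-CO3 was within 2798 to 2818 CPM in WT and 2385 to 2534 CPM in ΔNLS cells. The MT- share of counts was 2.10 ± 0.192% in WT and 2.03 ± 0.0897% in ΔNLS cells (SD, n = 3, exact permutation p = 0.6).

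Members called in both experiments, which share no library, are set side by side here. They numbered 6, which is 6 of the 20 erlotinib calls and 6 of the 19 ΔNLS calls, and each had the opposite sign in the other. NDUFB5 and SDHD were higher with erlotinib and lower in ΔNLS cells, and ATP5ME, ATP5MF, NDUFV3 and UQCRHL were lower with erlotinib and higher in ΔNLS cells. Over all 15216 genes tested in both experiments, 3241 (21.3%) were called in both and 1988 of those (61.3%) had opposite signs, so opposite signs were the more frequent case among all genes too. Of the remaining members, 14 were called with erlotinib alone, 13 in ΔNLS cells alone and 60 in neither. Whether the effects differ between experiments was not tested as such.

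Lists of genes that act upstream of or around the complexes were counted in the same fits. Of the 30 genes for transcription and RNA handling in mitochondria, 1 was higher and 12 were lower with erlotinib (median -0.28). FASTK rose by 0.29. POLG, the mitochondrial DNA polymerase, was at 42.6 CPM with erlotinib and 77.5 CPM with EGF (-0.86 ± 0.098, adjusted p = 3.61e-06 by edgeR), and TFB1M, a methyltransferase of the mitochondrial ribosomal RNA, fell by 0.54. Of 76 tested mitochondrial ribosomal proteins, 5 were higher and 20 lower (median -0.15), with MRPL45 the highest at 0.50 and MRPS24 the lowest at -1.59 ± 0.20 and a level of 2.21 CPM against 6.77 CPM. Of 54 assembly factors 10 were higher and 8 lower, led by SURF1, an assembly factor of complex IV, at 0.83 ± 0.13 and NDUFAF8 at -0.76 ± 0.20. Of 14 genes of the tricarboxylic acid cycle 2 were higher and 3 lower, with SUCLG2 at 0.40 and OGDH at -0.42. The background in this comparison was 44.0%.

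Of 9 tested genes of mitochondrial biogenesis, counting the widely used target CYCS, 1 was higher and 4 lower with erlotinib. That is 55.6% called in a list of 9, against 44.0% of all genes tested. CYCS, cytochrome c, was at 266 CPM against 537 CPM (-1.01 ± 0.13, adjusted p = 1.44e-05 by edgeR), MYC at 78.7 against 140.0 CPM (-0.83 ± 0.086), PPRC1 at 24.03 against 38.2 CPM (-0.67 ± 0.10) and PPARGC1B at 4.51 against 6.94 CPM (-0.63 ± 0.18). GABPA, the ETS factor named above, rose by 0.44 ± 0.11 (adjusted p = 0.00365 by edgeR). NRF1 differed by -0.24 (adjusted p = 0.0657), ESRRA by 0.10, GABPB1 by -0.16 and YY1 by -0.02, none called. PPARGC1A and ESRRG did not pass the filter on low counts.

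With cSNX1.3, where the background was 6.07%, 1 of the 9 biogenesis genes and 1 of the 30 mitochondrial RNA genes were called, both higher. They were ESRRA, at 129 against 99.9 CPM (0.37 ± 0.090, adjusted p = 0.0198 by edgeR), and POLG, at 102 against 77.5 CPM (0.40 ± 0.096, adjusted p = 0.0194 by edgeR). None of the 76 ribosomal proteins, 54 assembly factors or 14 cycle genes was called, with 2, 4 and 0 at an unadjusted p under 0.05. In ΔNLS cells, with a background of 41.4%, ESRRA (0.44 ± 0.075, adjusted p = 0.000192 by edgeR) and NRF1 (0.54 ± 0.10, adjusted p = 0.00054 by edgeR) were higher than in WT, 2 of the 9 biogenesis genes. The other lists had 2 higher and 3 lower of 30 mitochondrial RNA genes, 6 and 5 of 76 ribosomal proteins, 8 and 11 of 54 assembly factors and 2 and 2 of 14 cycle genes. TFB1M was higher (0.49 ± 0.10) and FASTKD2 lower (-0.56 ± 0.079). The largest differences of the remaining lists were in NDUFAF1 (-0.68), UQCC1 (0.52), SUCLG2 (-0.47), IDH3A (0.44), MRPL40 (-0.33) and MRPL38 (0.73, at 2.07 against 1.24 CPM).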

How the data were processed

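RNA of 15 MDA-MB-468 libraries was analysed from 1 table. The authors trimmed reads with TrimGalore, aligned them to GRCh38 with STAR and counted read pairs for each Ensembl gene using featureCounts (strand ignored). They deposited the raw counts, not normalized; the annotation release is not given in the sources used here. Gene IDs were matched to GENCODE 44 (61399 of 61552) for names and exons. Groups came from the labels.

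Counts were tested with edgeR 4.0.16 in R 4.3.3: TMM scaling, filterByExpr by group, a robust quasi-likelihood fit and Benjamini-Hochberg adjustment over all genes tested, threshold 0.05. The 9 drug libraries and the 6 line libraries were fitted separately. SEs come from the fit and SDs from CPM. Every replicate pair differed by more than sampling noise (chi-square per degree of freedom 2.60 to 22.3). The test was checked on simulated data.

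Named genes are the MT- genes, the complex II genes, CYC1, UQCRFS1, alternative forms, the regulators, and, per comparison, the 5 nuclear members that rose most and the 5 that fell most, counting only called members whose groups are separate and whose mean reaches 1 CPM, with the largest changes of each other list. Other members are named as calls, or for their level, and were chosen after their values were seen. Alternatives were DESeq2 1.42.0 as the test or for scaling, other filters, other sets of libraries, scaling without mitochondrial genes, the replicate number as a block, a threshold of 0.01 and leaving out each library. The members and lists were chosen with earlier results of these data known. A result for 1 member is not reported here.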

Additional observations from a re-analysis of the deposited data

How the results depend on the processing

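Counts of called members were recomputed under each alternative. For erlotinib vs. EGF the count was 20, and 17 to 24 under the other tools, scalings, filters and sets of libraries. It was 10 at an adjusted p of 0.01 and 13 to 23 with 1 library left out, 13 being without erlotinib replicate 3. Of the 20 called members, 17 passed under every full alternative and 11 also with each library left out. For cSNX1.3 vs. EGF the count was 0 except 1 with no filter on low counts, and 0 to 1 with 1 library left out. For erlotinib vs. cSNX1.3 it was 32, 17 at an adjusted p of 0.01 and 19 to 36 with 1 library left out. For ΔNLS vs. WT it was 19, but 5 when all 15 libraries were fitted, 5 at an adjusted p of 0.01 and 7 to 23 with 1 library left out. Of those 19, 4 passed under every full alternative. The cause of these shifts was not tested. No called member changed sign under any alternative.

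Replicate numbers gave no steady pairing of the samples. Deviations of same-numbered libraries correlated between -0.63 and 0.65, and those of differently numbered libraries between -0.74 and 0.82. The lowest and highest of the latter were EGF replicate 2 with cSNX1.3 replicate 3 and with cSNX1.3 replicate 1. The source of this shared spread was not tested. With the replicate number as a block the counts were 18, 0, 28 and 9 in the order given above. The difference in the MT- share of counts stayed within the spread between replicates under each alternative run.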

Other observations

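MTATP6P1, a nuclear copy of MT-ATP6, was chosen after its values were seen. It had 1428, 1514 and 2106 counts in the EGF libraries, 1350, 1842 and 1985 with cSNX1.3 and 2900, 3358 and 4313 with erlotinib. The log2 change with erlotinib was 0.96 ± 0.19 vs. EGF (adjusted p = 0.00163 by edgeR). Erlotinib replicate 3 had both the most counts on the copy and the lowest MT-ATP6 level, 704 CPM. That low level was not particular to MT-ATP6. Among the erlotinib libraries, replicate 3 was lowest in every MT- gene except MT-ND4L, with MT-CO2 at 1644 CPM and MT-CYB at 715 CPM. In WT and ΔNLS cells the copy was at 47.8 and 44.6 CPM on average and was not called. Near-identical copies share reads, and how pairs were divided between them was not tested.

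The mitochondrial ribosomal RNAs, which lie outside the members, took 0.602 ± 0.0554% of the counts with EGF and 0.748 ± 0.0732% with erlotinib (SD, n = 3, exact permutation p = 0.1, the smallest these groups can give). MT-RNR1 fell by 0.35 on the log2 scale with erlotinib (adjusted p = 0.0275 by edgeR), and MT-RNR2 differed by 0.26 (adjusted p = 0.0963 by edgeR). In ΔNLS cells MT-RNR2 was lower than in WT (-0.27, adjusted p = 0.0147 by edgeR).

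In the EGF and WT groups, the shares of the nuclear and mitochondrial members ran in opposite order. EGF replicate 2 had the lowest MT- share (1.64%) and the highest nuclear-member share (1.01%) of its group, and EGF replicate 3 had the highest MT- share (2.27%) and the lowest nuclear-member share (0.890%). WT replicate 2 (1.89% and 1.01%) and WT replicate 3 (2.27% and 0.901%) stood in the same order. In the other groups the order was not fully inverse. Erlotinib replicate 3 had the lowest MT- share of its group (1.62%) but a middle nuclear-member share (0.949%). The cSNX1.3 replicate 3 had the lowest nuclear-member share of its group (0.834%) but a middle MT- share (2.03%).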
